A study of Mus musculus with 8 samples.

Results

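The genes described here encode the enzymes that turn inactive prohormones into active peptides. Of the 23361 genes of the table, 9 were chosen by symbol. They are the proprotein convertases Pcsk1, Pcsk2, Pcsk5, Pcsk6 and Furin, the carboxypeptidases Cpe and Cpd, the amidating enzyme Pam and the glutaminyl cyclase Qpct. All 9 were found in the table and all 9 passed the filter on low values. RNA was sequenced from 5 cancers of the gastric squamous-columnar junction (SCJ), the border between the squamous forestomach and the glandular stomach, and from the SCJ of 3 age-paired wild-type mice. The cancers, labelled Trp53-/-Rb1-/-, arose after tamoxifen injection in mice that carried Lgr5 eGFP-Ires-CreERT2 and the Ai9 reporter together with both floxed genes, Trp53 loxP/loxP and Rb1 loxP/loxP. Cre is expressed there from the Lgr5 locus, so that the tumor suppressor genes Trp53 and Rb1 were deleted in Lgr5+ cells and their progeny, and the tdTomato of the reporter marked these cells when the tumors were dissected. Mice were injected as young adults and the tumors were taken many months later, and the exact age of each mouse is not given in the sources used here. The methods state that control mice of the tumor experiments also received tamoxifen, without saying whether the wild-type mice sequenced were among them. The genetic background of the wild-type mice is not given in the sources used here.

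In endocrine cells a prohormone is cut after pairs of basic residues inside the secretory granule. The basic residues left at the new C-terminus are trimmed off, a C-terminal glycine may be turned into an amide, and an N-terminal glutamine may be closed into pyroglutamate. PC1/3 (Pcsk1) and PC2 (Pcsk2), carboxypeptidase E (Cpe) and Pam carry out these steps in cells with regulated secretion. Furin, PC5/6 (Pcsk5), PACE4 (Pcsk6) and carboxypeptidase D (Cpd) process growth factors, receptors and proteases along the constitutive secretory pathway of many cell types. The normal stomach holds scattered endocrine cells that make gastrin, somatostatin and ghrelin.

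The sequence upstream of an annotated start site is shown for the convertases that stood at opposite ends of the comparison, Pcsk1, Pcsk2 and Furin, and for the amidating enzyme Pam. Sequences are from RefSeq (GRCm38.p6, the mm10 assembly), each covering up to 250 bases before a start and read 5′ to 3′ on the strand of the gene. Bases of annotated exons of the gene itself were left out. Capitals mark the cAMP response element TGACGTCA, its half-site TGACG (which also lies within the full element), the E-boxes CAGCTG and CAGATG and the GC box GGGCGG, each searched on both strands, so that the complementary letters appear where the match is on the other strand. Of the 9 genes, 7 had a window in the table, while Cpe and Qpct had none.
Pcsk1, chr13:75089607-75089825, plus strand: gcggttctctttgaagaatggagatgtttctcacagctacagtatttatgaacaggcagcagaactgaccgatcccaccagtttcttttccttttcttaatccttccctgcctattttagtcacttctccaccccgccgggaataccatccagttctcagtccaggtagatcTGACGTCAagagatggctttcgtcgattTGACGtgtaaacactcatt
Pcsk2, chr2:143545883-143546132, plus strand: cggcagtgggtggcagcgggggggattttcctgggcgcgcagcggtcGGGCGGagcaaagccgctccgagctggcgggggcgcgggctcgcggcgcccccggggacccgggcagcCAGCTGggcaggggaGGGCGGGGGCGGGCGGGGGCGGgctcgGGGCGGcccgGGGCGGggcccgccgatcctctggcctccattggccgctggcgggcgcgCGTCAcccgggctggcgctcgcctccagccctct
Furin, chr7:80402813-80403062, minus strand: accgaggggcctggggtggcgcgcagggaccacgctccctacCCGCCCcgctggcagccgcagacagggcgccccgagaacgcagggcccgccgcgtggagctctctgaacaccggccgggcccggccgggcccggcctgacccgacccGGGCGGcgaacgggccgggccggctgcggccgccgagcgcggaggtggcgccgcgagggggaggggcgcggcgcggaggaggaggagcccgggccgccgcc
Pam, chr1:98095647-98095896, minus strand: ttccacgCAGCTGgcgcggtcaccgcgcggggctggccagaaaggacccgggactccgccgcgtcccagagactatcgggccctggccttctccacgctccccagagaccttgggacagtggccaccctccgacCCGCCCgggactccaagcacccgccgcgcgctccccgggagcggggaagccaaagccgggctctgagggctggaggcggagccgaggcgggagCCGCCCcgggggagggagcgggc

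The Pcsk1, Furin and Pam windows lie before a RefSeq start that is downstream of the outermost end of the gene, so that they fall wholly or mostly inside its annotated span, whereas the Pcsk2 window lies before the whole gene. The full cAMP response element was found in the Pcsk1 window, 78 bases before this start, with a further half-site 50 bases before it. It occurs in 1.55% of the 32851 promoter windows of the same length, and the half-site occurs in 17.8% of them. The Pcsk2 window held 1 half-site, 34 bases before the start, 1 CAGCTG E-box and 7 partly overlapping GC boxes, and its GC content was 82.4%, against 46.8% in the window of Pcsk1. Furin has more than 1 annotated start, and the window shown, which is free of exons of other genes, had a GC content of 83.2% and 2 GC boxes, whereas that of the outer start had a GC content of 50.4%, 1 TGACG half-site and no GC box and lay within exons of Gm44851. In the Pcsk2 window 95 bases belong to an exon of the antisense gene Pcsk2os1. Pam also has more than 1 RefSeq start, and the window shown held 1 CAGCTG E-box and 2 GC boxes, whereas that of its other start, which overlaps it, held 3 GC boxes and no E-box. CAGCTG occurs in 13%, CAGATG in 14.4% and the GC box in 32.7% of all windows. These matches describe the letters only, since no factor was measured at these promoters.

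Values are FPKM (fragments mapped to a gene, divided by its transcript length and by the size of the library) rounded to whole numbers by the authors. Read numbers are not part of the table, so the depth behind each value is unknown and no counting interval is given. Tests across 14357 genes were made on log2(FPKM + 1) with limma. Log2 changes are on that scale, cancers minus controls, are given with their standard error (SE) where a result turns on them, and understate the change of genes near 0. Summed FPKM was 403569 to 573858 in the cancers and 887141 to 992550 in the controls, where the 10 most abundant genes took 39.3 to 44.3% of the sum, against 11.1 to 19.6% in the cancers. The fold changes, list counts and ratios were therefore also computed after each library was rescaled to the same sum (TPM), whereas marker sums and nearest patterns are given for FPKM only. Over all genes the median log2 change was -0.04 with FPKM and 0.81 with TPM. Nothing in the labels says how the samples of a group relate, and the p-values measure only the spread between these samples.

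The deleted genes served as a check of the labels. Rb1 was at 4, 4, 5, 6 and 4 in cancers 1 to 5 and at 9, 9 and 10 in the controls (log2 change -0.90, limma adjusted p = 0.0059), but its log2 change was -0.05 with TPM. Trp53 was at 12, 22, 12, 30 and 12 in the cancers, against 16, 17 and 19 in the controls, with overlapping groups (log2 change -0.08, limma adjusted p = 0.87), and its log2 change was 0.86 with TPM (limma adjusted p = 0.020). The values cover whole genes and not only the deleted exons, and Rb1 did not pass the test with TPM.

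The cancers had more of the granule enzymes and less Furin, under every scaling tried. Pcsk1, Pcsk2, Cpe, Pam and Qpct were higher in the cancers, Furin, Cpd and Pcsk6 were lower, and Pcsk5 did not pass the test, but Cpd and Pcsk6 did not pass with TPM. These 5 higher genes compare with 16.2% of all genes tested that were called higher, and the 3 lower genes with 18.3% called lower. The same 5 genes lay above all 3 controls in every cancer, as did 14.4% of all genes, and the same 3 lay below all controls, as did 19.8% of all genes. The median log2 change of the 9 enzymes was 3.26. Pcsk1, Pcsk2, Cpe, Pam, Qpct and Furin stayed past the threshold in the same direction in 17 of 17 alternatives, and each of them and Cpd had p = 0.018 in the two-sided exact permutation test over all 56 assignments of 8 samples to 5 and 3, the smallest that 5 against 3 allow. With TPM 5 were higher, beside 50.0% of all genes, and 1, Furin, was lower, beside 3.68% of all genes.

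**Figure D1:**
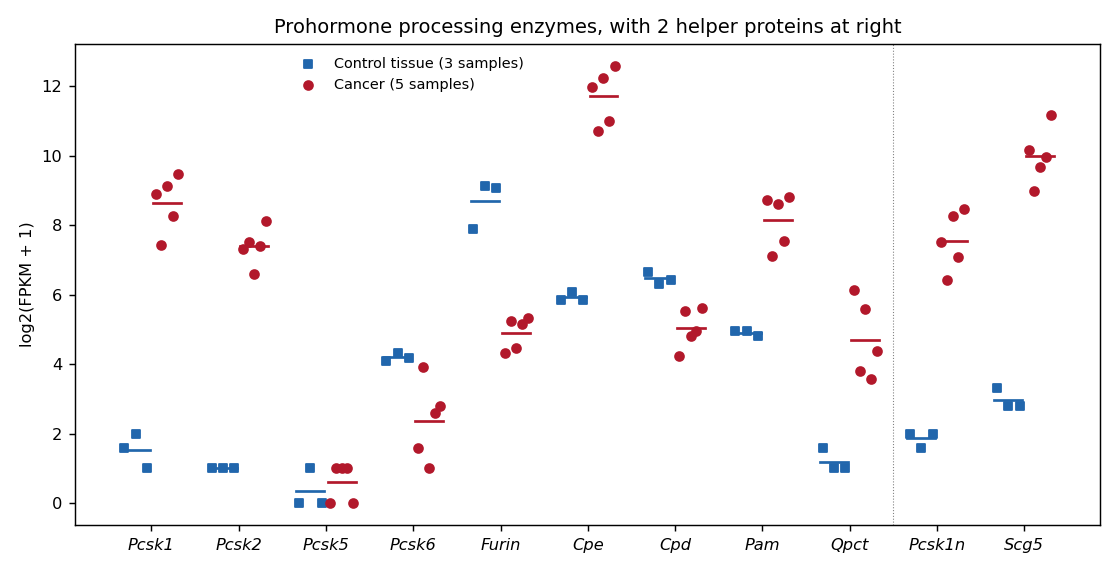
Log2(FPKM + 1) (vertical axis) of each of the 9 enzymes, with Pcsk1n and Scg5 at right, in the 5 SCJ cancers and the 3 control SCJ samples. Each point is a sample and bars mark the mean of each group. Pcsk1, Pcsk2, Cpe, Pam and Qpct were higher in every cancer than in any control, Pcsk6, Furin and Cpd were lower, and Pcsk5 stayed at 0 or 1.

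These are bulk samples, in which fewer cells of a type and less RNA per cell cannot be told apart, and markers of other cell types moved with the groups. The endocrine cell markers Chga, Chgb, Syp, Insm1 and Neurod1 were each higher in the cancers, and Chga, the granin chromogranin A, was at 7185, 3247, 10826, 12715 and 12837 against 108, 152 and 134 (limma adjusted p = 0.00068). The sum of 6 mucous cell markers was 691 to 72677 in the cancers and 146212 to 214340 in the controls. The sum of 6 squamous epithelium markers was 1 to 1635 against 2138 to 3695, and that of 4 genes listed as parietal cell markers was 0 to 2632 against 6643 to 12457. Of these, 1 of 6 mucous, 2 of 6 squamous and 1 of 4 parietal markers passed the test as lower, beside 18.3% of all genes. The parietal list includes Gif, which chief cells make in mice, so its sum is not of parietal genes alone. Gif was at 0, 520, 36, 434 and 178 in the cancers, against 2581, 4982 and 3374 in the controls. The parietal gene Atp4a was at 0, 370, 66, 810 and 67 against 1643, 3437 and 3572. Cancer 2 had the lowest Chga of the cancers, the highest mucous sum, and the lowest Pcsk1, Cpe and Pam. Pcsk2, in contrast, was higher in cancer 2 (182) than in any cancer but cancer 5 (280), and Qpct was lowest in cancer 4 (11, against 13 in cancer 2).

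Among the remaining lists, the sums of endothelial markers (14 to 40 against 6 to 10) and macrophage markers (81 to 155 against 23 to 29) were higher in the cancers, whereas those of chief cell, smooth muscle, fibroblast, lymphocyte and hepatocyte markers overlapped between the groups. Single samples stood apart in some of them. The chief cell sum was 28895 in control 1 against 47 and 62 in controls 2 and 3. This gap lay in Pgc alone, at 28832, 0 and 0 in controls 1 to 3. The other chief cell gene of the list, Pga5, was at 63, 47 and 62, so the sum does not show more chief cells in control 1. The lymphocyte sum was 135 in cancer 1 against 0 to 6 in the other cancers, and the hepatocyte sum was 567 in cancer 5 against 1 to 60. Control 1 also had the lowest Furin of the controls, and without it the log2 change of Furin was -4.20 (limma adjusted p = 0.0033). Furin, Cpd and Pcsk6 were low in the cancers, where the mucous, squamous and parietal sums were low, and the mucous sums were 691, 72677, 5226, 46224 and 15908 in cancers 1 to 5. Cancers 1, 3, 4 and 2 stood in the same rising order for Furin and for the mucous sum, and cancer 5 was the highest of the cancers for Furin but not for that sum. The squamous sums, 1, 17, 365, 1635 and 607 in cancers 1 to 5, and the parietal sums, 0, 1511, 212, 2632 and 288, did not follow that order. The part of these cells in the values of the enzymes was not tested.

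Pcsk1 (chromosome 13, 75089420 to 75134861, plus strand) encodes PC1/3, the convertase that makes the first cuts in many prohormones. Its FPKM was 475, 171, 566, 310 and 707 in cancers 1 to 5 and 2, 3 and 1 in controls 1 to 3. The lowest cancer was cancer 2, and the groups were far apart. In the limma fit this was a log2 change of 7.12 (SE 0.47, 95% interval 6.02 to 8.21, limma adjusted p = 0.00036). Pcsk1 had the 8th largest rise of all genes tested. It ranked between 85 and 433 among the genes of each cancer by FPKM, and between 9472 and 11066 in the controls.

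Pcsk2 (chromosome 2, 143546133 to 143816284, plus strand) encodes PC2, which cuts later and at further sites, as in the step from proglucagon to glucagon. It was at 158, 182, 96, 169 and 280 in the cancers, against 1 in each control. Cancer 5 was the highest and cancer 3 the lowest, a different order from that of Pcsk1, for which cancers 2 and 4 were lowest. Its log2 change was 6.39 (SE 0.30, 95% interval 5.70 to 7.09, limma adjusted p = 0.00013), the 17th largest rise. With a pseudocount of 0.1 the log2 change was 7.25 for Pcsk2 and 7.69 for Pcsk1, since control values of 1 to 3 are little above 0. Exons of the antisense genes Pcsk2os1 and Pcsk2os2 overlap Pcsk2, and the strand setting of the quantification is not given in the sources used here.

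Furin (chromosome 7, 80389194 to 80405441, minus strand), the convertase of the trans-Golgi network found in most cells, was at 19, 37, 21, 35 and 39 in the cancers, against 238, 555 and 541 in the controls. Control 1 was the lowest control and still far above every cancer. This gave a log2 change of -3.80 (SE 0.37, 95% interval -4.65 to -2.94, limma adjusted p = 0.0011), and the mean of the controls was 14.7 times that of the cancers. With TPM the log2 change was -2.85 (limma adjusted p = 0.00076), still well below the median of all genes. Furin ranked between 181 and 401 in the controls. Exons of the antisense gene Gm44851 overlap it.

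Pcsk6 (chromosome 7, 65862136 to 66050386, plus strand) encodes PACE4, which acts on TGF-β family precursors at the cell surface. It was at 2, 14, 1, 5 and 6 in the cancers, against 16, 19 and 17 in the controls. Cancer 2 came close to the controls, and the other cancers lay well below. The log2 change of Pcsk6 was -1.82 (SE 0.60, 95% interval -3.21 to -0.42, limma adjusted p = 0.0499, exact permutation p = 0.054). This is at the threshold, and 3 of 17 alternatives kept it past. Of the samples, only cancer 2 could be left out without loss of the call (limma adjusted p = 0.013), and without any other sample the limma adjusted p was 0.072 to 0.13. With TPM the log2 change was -1.05 (limma adjusted p = 0.15) and the groups overlapped.

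Pcsk5 (chromosome 19, 17432314 to 17837712, minus strand), which encodes PC5/6, was at 0, 1, 1, 1 and 0 in the cancers, against 0, 1 and 0 in the controls. At whole-number resolution neither group can be placed above the other (log2 change 0.27, 95% interval -0.60 to 1.13, limma adjusted p = 0.59).

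**Figure D2:**
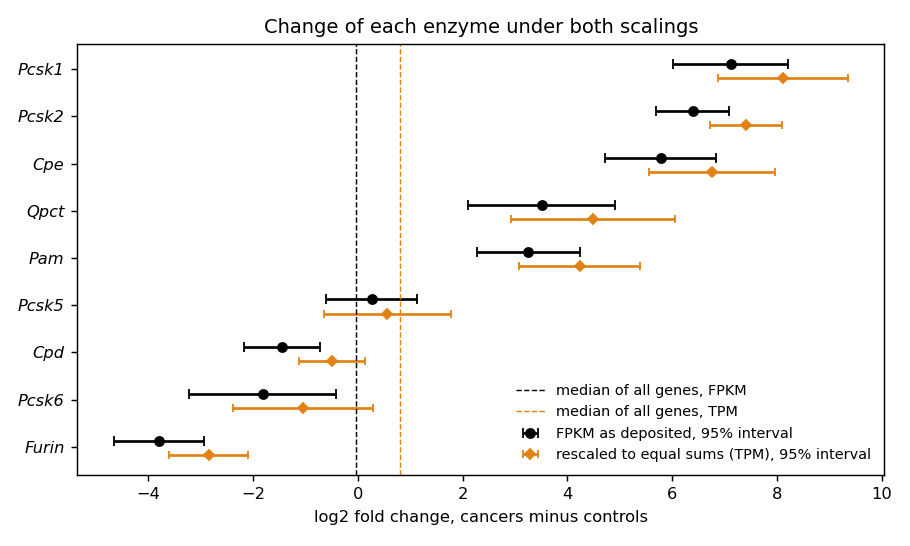
Log2 fold change (horizontal axis, cancers minus controls) of each enzyme with FPKM as deposited (black) and with libraries rescaled to equal sums (TPM, orange). Bars are 95% intervals and dashed lines are the medians of all genes, -0.04 and 0.81. Pcsk1, Pcsk2, Cpe, Qpct and Pam lie to the right of both lines, Furin lies to the left of both, and the intervals of Cpd and Pcsk6 reach 0 with TPM.

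Expressed as shares of the summed FPKM of 7 convertases (Pcsk1, Pcsk2, Pcsk4, Pcsk5, Pcsk6, Pcsk7 and Furin), the make-up of each library does not depend on its scaling. Pcsk1 took 71.5, 40.7, 81.1, 58.5 and 67.7% of the sum in cancers 1 to 5 and Pcsk2 took 23.8, 43.3, 13.8, 31.9 and 26.8%. Furin took 2.86 to 8.81% in the cancers but 85.6, 93.1 and 93.3% in the controls. Pcsk1 and Pcsk2 together made up 91.8 ± 4.77% (SD, n = 5) of the cancers' sum and 0.70 ± 0.37% (n = 3) of the controls' sum. The sum itself overlapped between groups, at 420 to 1045 FPKM in the cancers and 278 to 596 in the controls. Cancer 2 was the only cancer in which Pcsk2 exceeded Pcsk1.

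**Figure D3:**
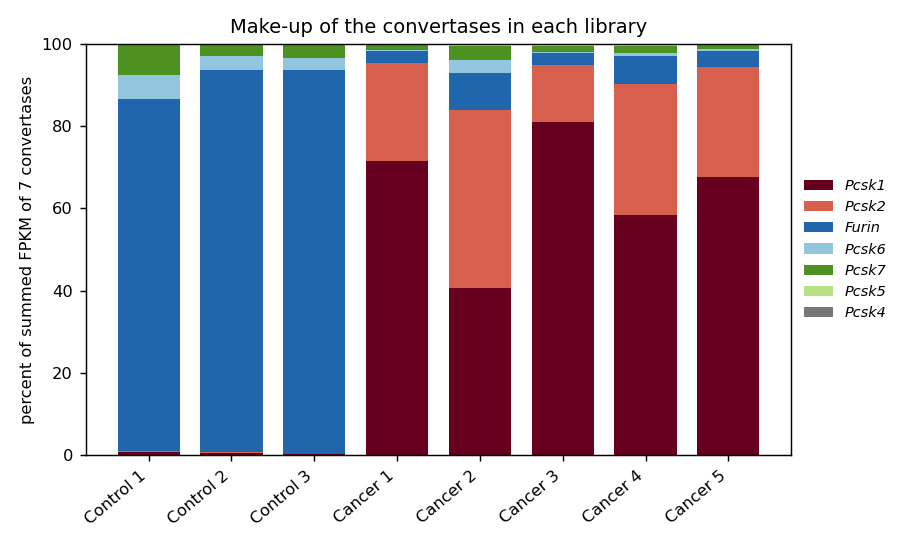
Share of each convertase in the summed FPKM of the 7 convertases (vertical axis, percent), 1 stacked bar per sample. Pcsk1 and Pcsk2 fill 84.0 to 95.3% of the cancers' bars, and Furin fills 85.6 to 93.3% of the controls' bars.

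Of 3 helpers and inhibitors of the convertases, those of PC1/3 and PC2 were higher in the cancers. Scg5 encodes 7B2, the chaperone that PC2 needs to mature, and was at 1156, 509, 812, 994 and 2325 in the cancers, against 9, 6 and 6 in the controls (log2 change 7.02, SE 0.45, limma adjusted p = 0.00033). Pcsk1n encodes proSAAS, an inhibitor of PC1/3, and was at 181, 85, 306, 134 and 353 in the cancers, against 3, 2 and 3 in the controls (log2 change 5.69, SE 0.46, limma adjusted p = 0.00064). Neither gene overlapped between groups, and cancer 2 was the lowest cancer for both. Serpinb8, a serpin that inhibits furin, was lower in the cancers, at 4 to 5 against 9 to 13 (log2 change -1.17, limma adjusted p = 0.0029), but its log2 change was -0.32 with TPM (limma adjusted p = 0.28).

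Of the other convertases and subtilases, Pcsk7, a widely expressed convertase, was lower (log2 change -0.80, limma adjusted p = 0.011), but its log2 change was 0.12 with TPM. Pcsk4, the convertase of germ cells, was at 1 to 2 in the cancers and listed at 0 in the controls, a difference of 1 or 2 steps of whole-number FPKM in a gene that entered the test through the cancers alone. Mbtps1, the site-1 protease that activates SREBP, was at 40, 27, 36, 22 and 30 against 21, 22 and 22 (limma adjusted p = 0.096, and 0.031 without cancer 4), and it passed as higher with TPM (log2 change 1.43, limma adjusted p = 0.0054) and with quantile normalization (limma adjusted p = 0.046).

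Cpe (chromosome 8, 64592542 to 64693109, minus strand) removes the basic residues that the convertases leave behind. Its FPKM was 4082, 1688, 4895, 2039 and 6183 in the cancers, against 57, 66 and 57 in the controls. Cancer 5 was the highest and cancer 2 the lowest, the same order of the 5 cancers as for Pcsk1. Cpe had a log2 change of 5.79 (SE 0.46, 95% interval 4.72 to 6.85, limma adjusted p = 0.00060). Cpe was among the most abundant transcripts of the cancers, at rank 6, 31, 5, 20 and 3 in cancers 1 to 5, and ranked 1272 to 1694 in the controls. The ratio of its mean in the cancers (3777 ± 1905) to that in the controls (60.0 ± 5.20) was 63.

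Cpd (chromosome 11, 76777208 to 76847008, minus strand) has the same specificity in the trans-Golgi network of many cells. It was at 18, 45, 27, 30 and 48 in the cancers, against 100, 79 and 85 in the controls. Every cancer lay below every control. Its log2 change was -1.44 (SE 0.31, 95% interval -2.17 to -0.71, limma adjusted p = 0.013). This call was lost with TPM, where the log2 change was -0.49 (limma adjusted p = 0.16) and the groups overlapped, and without control 1 (limma adjusted p = 0.056).

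Of the other carboxypeptidases, Cpm, a membrane enzyme, was lower (10 to 16 FPKM in the controls, 5 to 11 in the cancers, log2 change -0.99, limma adjusted p = 0.029), and its log2 change was -0.12 with TPM. Without cancer 2, 3 or 5 or control 2 or 3, its limma adjusted p was 0.051 to 0.11. Cpn1, the catalytic subunit of plasma carboxypeptidase N that liver makes, was higher, at 49, 67, 82, 148 and 197 against 21, 21 and 29 (log2 change 1.98, limma adjusted p = 0.015), a call lost without control 1 (adjusted p = 0.060) or control 2 (0.056). The summed FPKM of 6 hepatocyte markers was 36, 20, 60, 1 and 567 in the cancers and 1 in each control. Cancer 5 was highest for both this sum and Cpn1. The cancer with a sum of 1, the same as in each control, had the next highest Cpn1, at 148. The part of hepatocyte RNA in the Cpn1 values was not tested. Cpxm1 and Cpxm2, which lack carboxypeptidase activity, and the matrix protein Aebp1 did not pass (log2 change 1.20, 1.09 and 1.02), though Cpxm1 and Aebp1 did without cancer 5 (limma adjusted p = 0.042 and 0.027) and Cpxm2 did without cancer 1 (limma adjusted p = 0.034). With TPM Cpxm1 and Aebp1 passed as higher (limma adjusted p = 0.026 and 0.0083). Cpz was listed at 0 in all 8 samples.

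Pam (chromosome 1, 97821091 to 98095853, minus strand) amidates the C-terminus of peptides such as gastrin, cholecystokinin and calcitonin, and needs copper. It was at 425, 137, 394, 185 and 446 in the cancers, against 30, 30 and 27 in the controls. The controls hardly varied, whereas cancers 2 and 4 were below the other cancers. Pam had a log2 change of 3.26 (SE 0.42, 95% interval 2.27 to 4.24, limma adjusted p = 0.0023). An exon of B230216N24Rik on the same strand overlaps Pam.

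Qpct (chromosome 17, 79051906 to 79090378, plus strand) forms N-terminal pyroglutamate, as in gastrin, neurotensin and the chemokine Ccl2. It was at 70, 13, 47, 11 and 20 in the cancers, against 2, 1 and 1 in the controls. The cancers spread widely, with cancer 1 at 6.36 times cancer 4, and this order differed from that of Pcsk1 and Cpe. Qpct had a log2 change of 3.51 (SE 0.61, 95% interval 2.10 to 4.92, limma adjusted p = 0.0058) and 4.19 with a pseudocount of 0.1. Its Golgi-bound relative Qpctl was at 14, 9, 15, 9 and 14 in the cancers, against 8, 8 and 10 in the controls, with a log2 change of 0.43 (95% interval -0.07 to 0.92, limma adjusted p = 0.15), but it passed as higher with TPM (log2 change 1.35, limma adjusted p = 0.0088).

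Of 10 further peptide modifiers and proteases tested, 2 were higher, 1 was lower and 7 did not pass, with a median log2 change of 0.46. These shares of 20% and 10% compare with 16.2% and 18.3% of all genes, and with TPM 7 were higher and 3 did not pass, with a median of 1.39 beside 50.0% called higher and a median of 0.81 over all genes. The lysosomal protease cathepsin L (Ctsl), which also cleaves prohormones in granules, was at 545, 204, 620, 345 and 1295 against 49, 72 and 44 (log2 change 3.19, SE 0.55, limma adjusted p = 0.0056). Scpep1, a lysosomal serine carboxypeptidase, was at 167, 116, 159, 109 and 253 against 34, 40 and 35 (log2 change 2.05, SE 0.28, limma adjusted p = 0.0026). Both were higher in every cancer than in any control. Prep, a cytosolic prolyl endopeptidase, was lower (log2 change -0.82, limma adjusted p = 0.045), but its log2 change was 0.11 with TPM and leaving out cancer 1, 3 or 5 or any 1 control ended the call (limma adjusted p 0.068 to 0.13). Qpctl, Ctsb, Rnpep, Ece1, Ece2, Dpp4 and Prcp were the 7 that did not pass (log2 change -0.97 to 2.07), of which Qpctl, Ece1, Ece2, Dpp4 and Prcp passed as higher with TPM (limma adjusted p 0.0028 to 0.032), and Mme was too low to be tested. Without cancer 4, 7 genes of this list passed, and without cancer 2, 5 passed.

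Ratios of enzymes within a library compare them independently of the scaling, apart from the pseudocount of 1. Of 9 ratios computed, 7 had adjusted p under the threshold in two-sided exact permutation tests, for which 0.027 was the smallest adjusted value. In Pcsk1/Furin, Pcsk2/Furin and Cpe/Cpd the first gene lay above all controls in every cancer and the second below them. The groups were therefore bound to separate in these ratios, and their tests add no evidence to that of the single genes. The log2 ratio of Pcsk1 to Furin was 3.74 ± 1.07 (SD, n = 5) in the cancers and -7.17 ± 0.88 (n = 3) in the controls. That of Pcsk2 to Furin was 2.49 ± 0.38 and -7.70 ± 0.69. Both differences, 10.9 and 10.2, had exact permutation p = 0.018 and adjusted p = 0.027, and all 5 cancers lay above all 3 controls.

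The log2 ratio of Cpe to Cpd was 6.68 ± 1.05 in the cancers and -0.54 ± 0.27 in the controls, and that of Qpct to Qpctl was 1.01 ± 0.86 and -2.07 ± 0.45. The ratio of Pam to Cpe moved the other way, from -1.02 ± 0.11 in the controls to -3.55 ± 0.20 in the cancers, so that Pam rose by less than Cpe. The ratio of Pcsk1n to Pcsk1 was also lower in the cancers, at -1.10 ± 0.20 against 0.33 ± 0.71. In the controls Pcsk1n was at 3, 2 and 3 and Pcsk1 at 2, 3 and 1, so their ratio rests on few whole-number steps and on the pseudocount. Each of these 4 differences had exact permutation p = 0.018 and adjusted p = 0.027 over the 9 ratios.

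The ratio of Pcsk2 to Pcsk1 was -1.25 ± 0.97 in the cancers and -0.53 ± 0.50 in the controls, and the groups overlapped (difference -0.72, exact permutation p = 0.30). The ratio of Scg5 to Pcsk2 was 2.60 ± 0.66 and 1.98 ± 0.30 (difference 0.62, exact permutation p = 0.20, and 0.029 without cancer 2). The ratio of Pcsk6 to Pcsk5 was 1.78 ± 1.18 and 3.86 ± 0.47 (exact permutation p = 0.036, adjusted p = 0.046), but since Pcsk5 was at 0 or 1 this ratio mainly repeats the level of Pcsk6 and does not compare the enzymes. Its call was lost with TPM (exact permutation p = 0.089) and without any 1 sample other than cancer 3 and control 2 (exact permutation p 0.057 to 0.14).

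**Figure D4:**
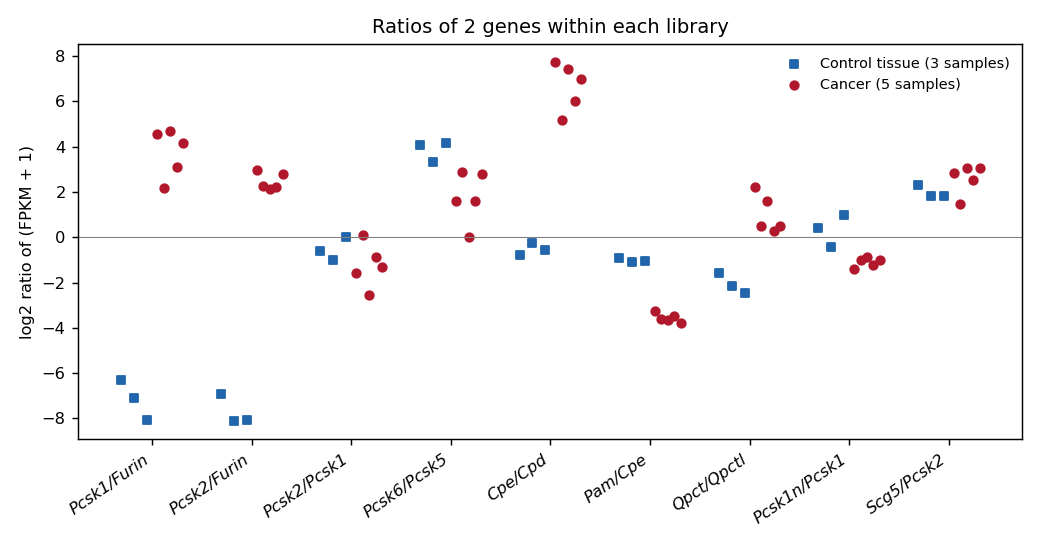
Log2 ratio of 9 gene pairs within each library (vertical axis, pseudocount 1), 1 point per sample. Pcsk1/Furin and Pcsk2/Furin differed by 10.9 and 10.2 between the groups, and Pcsk2/Pcsk1 and Scg5/Pcsk2 overlapped.

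The genes whose pattern lay closest to an enzyme were found by the root-mean-square difference of log2(FPKM + 1), each gene centred on its mean, over the 8 samples and 9137 genes with a mean FPKM of at least 5. For Pcsk1 these were Gc (0.37), Resp18 (0.40) and Scg2 (0.44), and for Pcsk2 they were Tmem27 (0.56), Scg5 (0.58) and Ptprn (0.60). For Cpe they were Pcsk1n (0.25), Neurod1 (0.30) and Sez6l2 (0.32), for Pam Cacna1a (0.10), Rundc3b (0.12) and Pacsin1 (0.12), and for Qpct Cdhr2 (0.20), Mns1 (0.34) and Elovl2 (0.37). Cdhr2 was at 48, 14, 40, 10 and 22 in the cancers, against 2, 1 and 1 in the controls, with the cancers in the same order as for Qpct. Those closest to Furin were Nmu (0.54), Sec14l4 (0.55) and B4galnt3 (0.56). The difference between the groups weighs most in this measure.

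Precursors that these enzymes act on were taken as a list of 37 genes of peptide hormones and granins. Of these, 30 were tested, 13 were higher, 1 was lower and 16 did not pass, with a median log2 change of 2.22 beside -0.04 over all genes. The 43.3% called higher compare with 16.2% of all genes, but with TPM 15 were higher, a share no larger than the 50.0% of all genes. Cck, which encodes cholecystokinin, was at 32719, 7438, 33979, 1507 and 1462 in the cancers, against 4, 24 and 9 in the controls (log2 change 9.37, SE 1.26, limma adjusted p = 0.0027). Chgb, a granin stored in secretory granules, was at 7002, 4256, 5738, 1725 and 2272 against 7, 21 and 8 (log2 change 8.30, limma adjusted p = 0.00036). Sct, which encodes secretin, was at 334, 496, 739, 217 and 77 against 0, 1 and 0 (log2 change 7.85, limma adjusted p = 0.00079).

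Cancers 4 and 5 were the lowest for Cck and Chgb, whereas cancer 5 was the highest for Pcsk1, Pcsk2 and Cpe, and for Pam with FPKM but not with TPM. Calca, the gene of calcitonin and CGRP, was at 521, 20, 27, 829 and 1144 in the cancers and listed at 0 in the controls. Calca and Sct, like other genes at or near 0 in the controls, entered the test through the cancers alone, and the counts of higher genes in each list include such genes. Nmu, which encodes neuromedin U, was the listed precursor called lower, at 0, 0, 0, 1 and 2 against 14, 24 and 12 (log2 change -3.57, limma adjusted p = 0.0019). Ghrl, which encodes ghrelin, also lay below all controls in every cancer but did not pass. It was at 0, 381, 86, 1330 and 100 against 2526, 2160 and 3471 (log2 change -4.97, limma adjusted p = 0.095).

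Of 25 precursors cut by furin-type convertases, 24 were tested, 5 were higher, 5 were lower and 14 did not pass. Their median log2 change was -0.04, as over all genes, and the 20.8% called in each direction compare with 16.2% higher and 18.3% lower over all genes. With TPM 11 were higher and 13 did not pass, beside 50.0% of all genes called higher. The 10 genes past the threshold became 6 without control 2 and 5 without control 3. Tgfb1 was at 20, 10, 27, 14 and 28 against 3, 2 and 3 (log2 change 2.42, limma adjusted p = 0.0029), and Bdnf was at 1 to 6 in the cancers and listed at 0 in the controls. Mmp15, a membrane metalloproteinase, was at 2, 27, 4, 16 and 21 against 71, 46 and 69 (log2 change -2.50, limma adjusted p = 0.039).

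Of 8 substrates of glutaminyl cyclase, 7 were tested, 1 was higher and 6 did not pass, a share of 14.3% beside 16.2% of all genes. With TPM 5 were higher and 2 did not pass, beside 50.0% of all genes called higher. The higher gene was Ccl2, which encodes a monocyte chemoattractant, at 6, 14, 7, 7 and 75 against 0, 0 and 1 (log2 change 3.46, limma adjusted p = 0.015), and it did not pass without control 1 or without control 2. Gast, Nts, Trh and Gnrh1 stand in this list and in that of the prohormones.

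**Figure D5:**
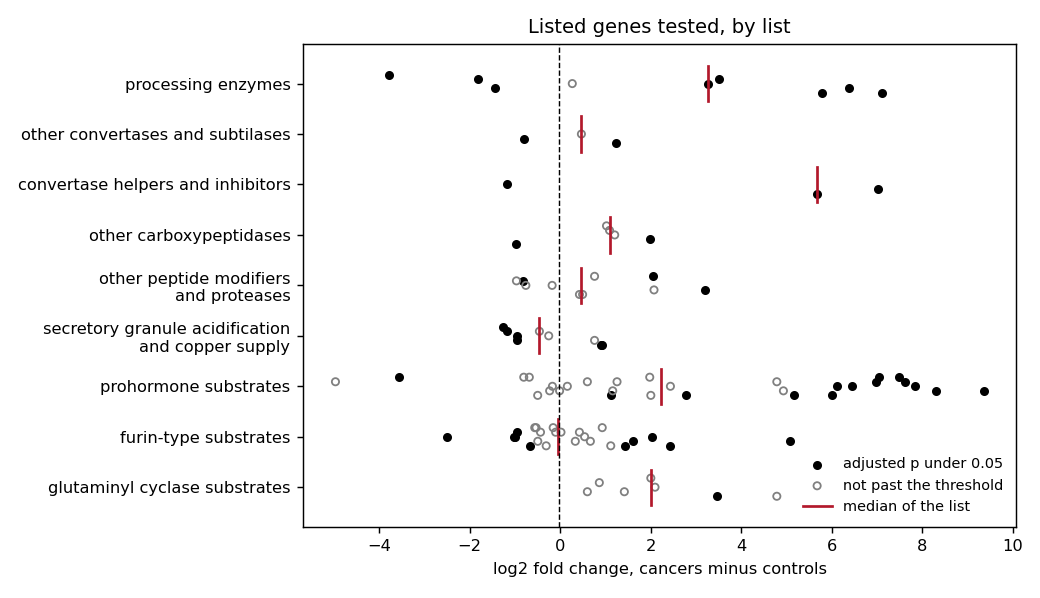
Log2 fold change (horizontal axis, cancers minus controls, FPKM as deposited) of every gene tested in the 9 enzymes and 8 further lists. Filled points are past an adjusted p of 0.05, open points are not, red bars are the medians of the lists, and the dashed line is the median of all genes, -0.04. The processing enzymes lie on both sides of the line, with a median of 3.26.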

How the data were processed

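RNA of 5 SCJ cancers and 3 control SCJ samples was sequenced after poly(A) selection, and the labels and the methods name different library kits. The authors trimmed reads with cutadapt 1.8, and their processing notes name TopHat2 2.0.13 and Cuffnorm 2.2.1 with the mm10 genome. The deposited values are FPKM rounded to whole numbers, and because of the rounding they are taken as a score rather than as counts of reads. Depth per library is unknown, and the normalization option and strand setting are not given in the sources used here.

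Of 23361 genes, the 14357 that reached an FPKM of 1 in 3 or more samples entered a limma 3.58.1 fit (R 4.3.3) of log2(FPKM + 1), with eBayes set to trend and no covariates, with Benjamini-Hochberg adjustment over all genes tested and a threshold of 0.05. The fit was tested on simulated data. Single genes and within-library ratios were also compared by two-sided exact permutation tests. The alternatives were a pseudocount of 0.1, no filter, a mean FPKM of at least 5, TPM, quantile normalization, median-of-ratios scaling, array weights, a fit with no trend, a replicate block and the removal of each sample in turn.

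The enzymes and lists were chosen with earlier results of these data known. Genes named are the 9 enzymes, the short lists of related enzymes in full, up to 4 genes with the largest change past the threshold in each further list, the 3 genes closest in pattern to each enzyme, and Trp53 and Rb1. Nmu is also named as the prohormone called lower and Ghrl as a further prohormone below all controls. Endocrine markers and single chief and parietal cell markers are named as such. Some genes that this rule would name are not reported here. The chief cell marker Pepf was not matched.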

Additional observations from a re-analysis of the deposited data

How the results depend on the processing

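Pcsk1, Pcsk2, Cpe, Pam, Qpct and Furin kept direction and threshold under all 17 alternatives. The 3 enzymes called lower became 1 with TPM, 1 with the replicate block and 1 to 3 when a sample was left out, with 1 without control 1. Pcsk5 reversed to -0.050 with array weights and -0.11 with quantile normalization, and could not be tested with a mean FPKM of at least 5. With TPM, Pcsk7 reversed to 0.12, Ctsb to 0.21, Prcp to 0.71 and Prep to 0.11. Trp53 reversed to 0.86 with TPM, 0.13 with quantile normalization and 0.021 with median-of-ratios scaling, and ranged from -0.29 to 0.027 when a sample was left out. The log2 ratio of Scg5 to Pcsk2 reversed to -0.055 with a pseudocount of 0.1.

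All genes called changed, 4948 (2326 higher, 2622 lower), became 7704 (7176 and 528) with TPM and 8148 (3909 and 4239) with array weights. With a mean FPKM of at least 5, 1244 were higher. When a sample was left out the total was 2548 to 5232, with 1362 to 2459 higher and 1186 to 2773 lower, the fewest without control 1 (2548), control 2 (2700) and control 3 (2874). Higher calls were 47.0% of all calls with FPKM, 93.1% with TPM and 55.2% with median-of-ratios scaling. The listed pathway genes called, 41 (27 higher, 14 lower), became 68 (45 and 23) with array weights, 48 higher and 1 lower with TPM, 9 lower with quantile normalization and 7 to 17 lower when a sample was left out. The cause of these shifts was not tested.

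The replicate numbers did not pair the samples: deviations of same-numbered samples correlated at -0.02, -0.19 and -0.10, and 0 of 3 cancers correlated best with their own number. With the replicate block 1534 genes were called (982 higher, 552 lower), and 23 listed pathway genes, of which 2 were lower. The 5 higher enzymes stayed higher with the block.

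Whole-number FPKM leaves values of 0 to 3 with few steps, which limits Pcsk5 and the control levels of Pcsk1, Pcsk2 and Qpct. The levels of the 9 enzymes and the 9 ratios were tested in the cancers for a sample far from the others, and 0 of 18 tests found any, where chance gives 0.9. Groups of 3 controls and the marker sums were not tested in this way.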

Other observations

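Prohormone enzymes work in an acidic, copper-supplied granule, and 9 genes of this supply were all tested. Atp6v1a, the catalytic subunit of the proton pump, was at 22, 17, 21, 22 and 33 in the cancers, against 62, 61 and 46 in the controls (log2 change -1.28, limma adjusted p = 0.0052). Atp6v0a2, a membrane subunit of the same pump, fell by 1.17 on the log2 scale, and the copper carriers Atp7a and Slc31a1 each fell by 0.96. These 4 were called lower and 2 were higher, Atp6ap1 and Atp6v1b2, named after their values were seen, with log2 changes of 0.93 and 0.91. These shares, 44.4% lower and 22.2% higher, stand beside 18.3% and 16.2% of all genes. With TPM 4 genes of the list were higher and 5 did not pass, beside 50.0% of all genes called higher. Counted in either direction, 7 genes of the list passed with median-of-ratios scaling, beside 4732 of all 14357 genes. With quantile normalization 7 passed, beside 3793 of all genes.

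Pcsk6 and Cpd were low in the cancers beside other genes of like pattern. Those closest to Pcsk6 were Sema3b (root-mean-square difference 0.29), Pdlim1 (0.31) and Chdh (0.31), and those closest to Cpd were C77080 (0.11), Slc22a23 (0.12) and Srebf2 (0.13). Srebf2, a regulator of cholesterol synthesis, was at 16, 37, 21, 24 and 40 in the cancers, against 67, 56 and 72 in the controls. For Pcsk5, at 0 or 1 throughout, the closest were Mxra8 (0.25), Mmp2 (0.29) and 0610037L13Rik (0.31).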
